A study of Mus musculus with 8 samples.

Results

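Expression of 9 transcription factor genes that help to pattern the embryonic forebrain was compared across control and ethanol-exposed mouse cortical neurospheres. The genes are Pax6, Emx1, Emx2, Lhx2, Otx2, Dlx1, Dlx2, Tbr1 and Bcl11b. They were taken by name, and every probe that the array platform's annotation assigns to 1 of them was used, which gave 11 probes of the 21582 on the array, for 9 of its 15094 named genes. Pax6 and Bcl11b had 2 probes each and the other 7 genes had 1 each.

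Neurospheres are clusters that neural progenitors form when they grow unattached. These came from mouse embryonic cortex taken at gestational day 12.5, of a strain the labels do not give. All cultures proliferated in serum-free medium with basic fibroblast growth factor at 20 ng/ml, epidermal growth factor at 20 ng/ml and leukaemia inhibitory factor at 0.15 ng/ml, and all were then differentiated by withdrawing the latter 2 factors while fibroblast growth factor stayed. The exposed cultures had met ethanol at 320 mg/dl for 5 days of proliferation, and went through the 3 days of differentiation without it; the controls met none. RNA of a control and of an exposed culture was hybridised together on each of 8 two-colour arrays, with exposed RNA in Cy3 on replicates 1 to 4 and in Cy5 on replicates 5 to 8. The labels do not tell whether different arrays hold different cultures, so the errors below are spreads between arrays and may be technical.

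Patterning of the forebrain sorts neural progenitors by position. Pax6 and Emx2 are expressed in opposing gradients across the cortical primordium and set the areas of the cortex, Emx1 marks the dorsal (pallial) progenitors, and Lhx2 acts as a selector gene that keeps cortical progenitors from becoming hem or antihem. Otx2 is needed for the forebrain and midbrain as a whole, while Dlx1 and Dlx2 drive the ventral progenitors that become GABAergic interneurons. Tbr1 and Bcl11b (also called Ctip2) act later, in the corticothalamic and subcerebral projection neurons of the deep cortical layers. All of these except Tbr1, a T-box factor, and Bcl11b, a zinc finger factor, carry a DNA-binding homeodomain. TAATTA, called the homeodomain core below, is a string that many but not all homeodomains recognise.

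The probes' own sequences were not used here. The upstream sequence of the gene with the widest ratios, Pax6, is shown for orientation, together with that of Tbr1, the tested gene whose window held the homeodomain core. The windows are the 250 bases before a gene's start in RefSeq's GRCm38.p6 set, printed 5′ to 3′ on the gene's strand, with capitals for the letters of 4 motifs: the GC box (GGGCGG or CCGCCC), the CCAAT box (CCAAT or ATTGG), the homeodomain core TAATTA and the TATA box (TATAAA or TTTATA). None of the windows was measured by the arrays.
Pax6, upstream start, chr2:105668646-105668895, + strand: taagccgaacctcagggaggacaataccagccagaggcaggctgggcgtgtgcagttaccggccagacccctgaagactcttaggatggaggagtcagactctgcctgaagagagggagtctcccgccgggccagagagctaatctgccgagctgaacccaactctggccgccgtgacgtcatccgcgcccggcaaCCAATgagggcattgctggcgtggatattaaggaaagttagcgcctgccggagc
Pax6, downstream start, chr2:105682213-105682462, + strand: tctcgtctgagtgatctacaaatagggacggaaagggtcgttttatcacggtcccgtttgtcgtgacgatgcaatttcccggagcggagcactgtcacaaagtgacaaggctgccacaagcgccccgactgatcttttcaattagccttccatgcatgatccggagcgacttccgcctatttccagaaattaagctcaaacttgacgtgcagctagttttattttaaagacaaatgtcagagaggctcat
Tbr1, chr2:61804203-61804452, + strand: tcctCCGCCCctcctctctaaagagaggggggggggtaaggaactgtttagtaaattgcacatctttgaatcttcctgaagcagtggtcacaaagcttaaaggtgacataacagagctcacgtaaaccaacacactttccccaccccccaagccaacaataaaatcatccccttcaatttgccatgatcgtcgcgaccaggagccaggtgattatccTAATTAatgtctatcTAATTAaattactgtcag
The upstream Pax6 window held 1 CCAAT box and the downstream one held none of the 4 motifs, while the Tbr1 window held 1 GC box and 2 copies of the homeodomain core, which overlapped no other motif. RefSeq lists 14 start windows for the 9 genes, of which 3 held the homeodomain core, the other two being windows of Otx2; over all 32851 windows of this length in that set, 4.84% held it. The GC, CCAAT and TATA boxes were in 5, 4 and 1 of the 14 windows, against 32.7%, 33.8% and 12.4% of all windows. Some genes have several windows, so the 14 are not independent. A match is a string of letters and not a binding site, and a window without a match says nothing about the factor.

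The deposited value of each probe is a log2 ratio of the array's 2 channels, and which channel or condition was divided by the other is not given in the sources used here. An exact 0 and each array's highest value were taken as ratios with no computable value and left out, a reading that no label states. Between 108 and 464 probes per array shared that highest value. The remaining values were centred on each array's median, so that a centred log2 ratio of 0 is the ratio of the middle probe of that array. Because the direction is not settled, each probe's ratio was described by 2 coefficients of 1 limma fit. The shared part is the average of both orientations, and the turning part is the distance of each orientation's mean from that average, counted positive where the ratio was higher with exposed RNA in Cy5. If the ratios are condition over condition, ethanol's effect is in the shared part. If they are dye over dye, it is in the turning part. In either case the other part holds a probe's difference between the dyes. While the direction is unknown, the 2 cannot be told apart for any part given below. A difference between the arrays of the 2 orientations would also enter the turning part, and was not tested. No sign below says whether exposed cells held more or less of a transcript.

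The members gave 75 computable values out of 88 probe and array pairs. Between 9 and 11 of the 11 probes had a value on each array, and 6 had values on all 8 arrays: both Pax6 probes, Lhx2, Dlx1, Dlx2 and the Bcl11b probe NM_021399. The gaps were concentrated in 2 genes. Emx1 was listed at exactly 0 on 4 arrays and Otx2 on 5, and these probes fell short of the 3 values per orientation that a test required. That left 9 tested probes of 7 genes, among 15345 probes tested in all.

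**Figure D1:**
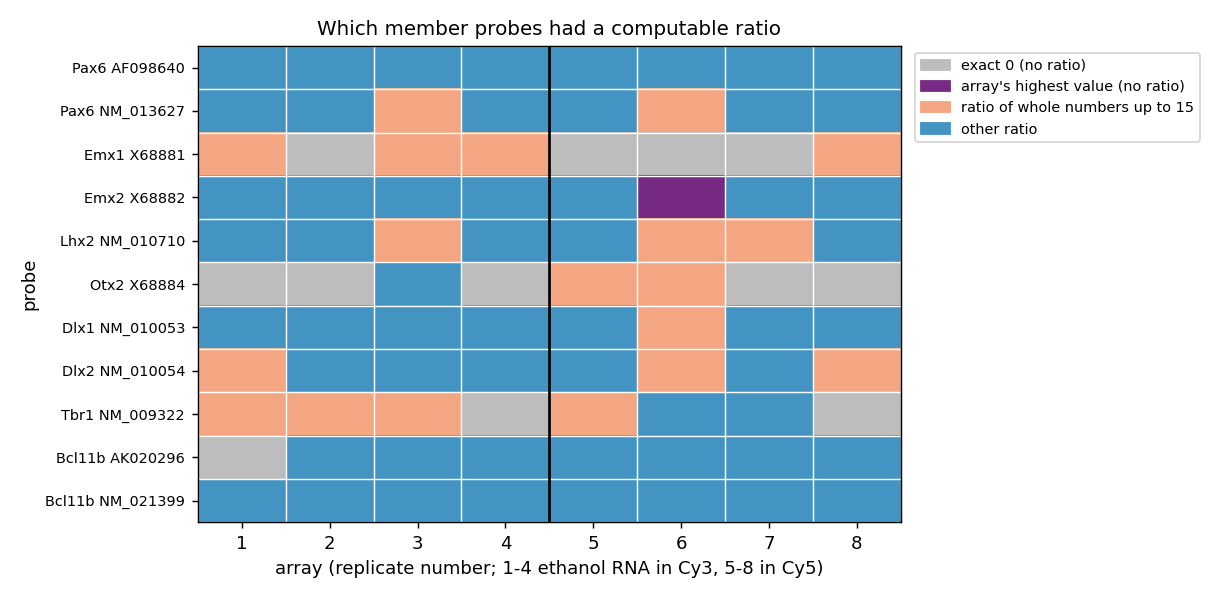
Each row is a member probe and each column an array, with exposed RNA in Cy3 left of the black line and in Cy5 right of it. Grey cells are exact zeros, the purple cell is the array's highest value, orange cells are ratios between 0.2 and 5 that equal a fraction of whole numbers up to 15, and blue cells are all other ratios; Emx1 and Otx2 have 4 and 5 grey cells and Tbr1 4 orange ones.

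Some of the ratios equalled fractions of small whole numbers. For this, each array's highest value was read as a ratio of 100000, which gave a constant per array to subtract. The ratios were then read as rounded to 3 decimals, so that a ratio of small whole numbers can be recognised. No label states the constant or the rounding. Over all probes, 29.6% of the 113832 ratios between 0.2 and 5 matched a fraction with numerator and denominator of at most 15 (within 0.0005 plus 0.001 on the log2 scale), against 10.2% after all ratios were shifted by 0.0041. The share was 16.7% where all 8 arrays gave the probe a value and 73.0% where only 3 did. Among the members, 19 of 52 ratios in that range matched. Emx1 matched on 4 of 4 arrays, with ratios equal to 3/7, 7/4, 7/2 and 1/5, and Otx2 on 2 of 2, with 3/13 and 2/1. Tbr1 matched on 4 of 6 (13/8, 3/14, 11/10 and 11/3) and Dlx2 on 3 of 5 (12/13, 2/7 and 2/3). Over all probes the share was 70.3% with values on 4 arrays, as for Emx1, and 51.2% on 6, as for Tbr1. It was 32.1% on 7, as for Emx2 and the Bcl11b probe AK020296, and 16.7% on 8, as for Dlx2. Lhx2 matched on 3 of 8 and the Pax6 probe NM_013627 on 2 of 7, against 16.7% over all probes with 8 values, Dlx1 on 1 of 6, and Emx2 and both Bcl11b probes on none of 5, 4 and 5. Each fraction gives the smallest whole numbers that match, and what a match says of the signals was not tested. The Pax6 probe AF098640 had no ratio between 0.2 and 5 and could not be judged in this way.

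Pax6, which specifies dorsal cortical progenitors and opposes ventral fate, had the widest ratios of the 9 genes, on 1 of its 2 probes. Probe AF098640 had centred log2 ratios of -4.73, -4.96, 3.04 and -3.40 on replicates 1 to 4, with exposed RNA in Cy3. With exposed RNA in Cy5 it had 7.13, 3.07, 5.57 and 4.75 on replicates 5 to 8. The orientations did not overlap, but only just: replicate 3 stood at 3.04 beside its own group's other 3 arrays, all below -3, and next to replicate 6 at 3.07. The group means were -2.51 ± 3.77 (SD, n = 4) and 5.13 ± 1.69 (SD, n = 4).

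The turning part of this probe was 3.82 ± 0.84 (SE of the fit, 95% interval 1.96 to 5.68), which is 14.1-fold (3.89 to 51.2), and it did not pass the threshold over all probes (limma, Benjamini-Hochberg adjusted p = 0.0572, unadjusted p = 0.000995). Of the 15345 tested probes 96, this one included, had a turning part of that size or larger, while by unadjusted p it ranked 267. Its SD within orientations, 2.92, was also among the widest 1.47% of tested probes. The shared part was 1.31 ± 0.84 (limma adjusted p = 0.504), and it was 0.39 without replicate 3 and 0.21 without the r arrays. The r arrays are replicates 3, 4 and 8, whose array codes end in the letter r. Leaving out replicate 3 changed the call: without it the turning part was 4.75 and passed (limma adjusted p = 0.00132), and over all 20 alternatives the adjusted p ran from 0.00132 to 0.156, under the threshold in 6. No other array, left out alone, brought it under the threshold.

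The other Pax6 probe, NM_013627, differed from it on the same arrays. Its centred log2 ratios were 0.42, 0.88, 1.04 and -4.37 on replicates 1 to 4 and 0.26, 0.55, 0.72 and 0.92 on replicates 5 to 8. The other 7 arrays thus lay in a narrow band above their median and replicate 4 alone lay far below. The turning part was 0.56 ± 0.56 (95% interval -0.69 to 1.81, limma adjusted p = 0.727) and the shared part 0.05 ± 0.56 (95% interval -1.20 to 1.31, limma adjusted p = 0.973). The 2 probes had the same sign on 6 of 8 arrays. They were furthest apart on replicate 5, by 6.87, and replicate 2, by -5.84 (AF098640 minus NM_013627, log2 scale), so that no single value for Pax6 can be given from these arrays. NM_013627 is a RefSeq transcript of Pax6; AF098640 was assigned to the gene by the platform's annotation, and which stretch of the transcript either probe reads is not given in the sources used here.

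**Figure D2:**
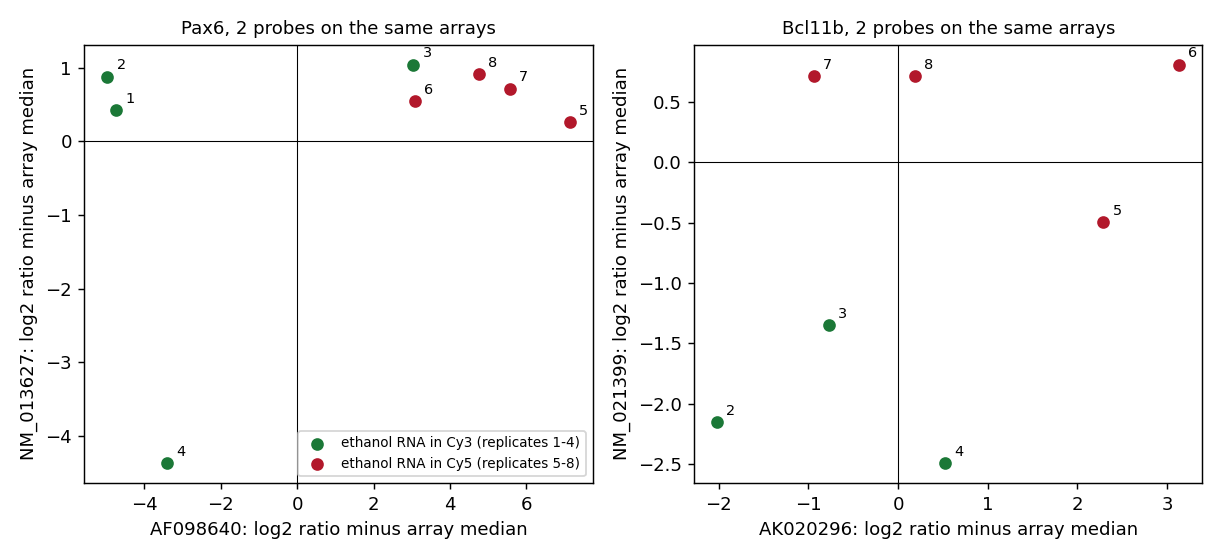
Centred log2 ratios of the 2 probes of Pax6 (left) and of Bcl11b (right), 1 point per array with its replicate number, green with exposed RNA in Cy3 and red in Cy5. The Pax6 probe on the horizontal axis runs from -4.96 to 7.13 while the other stays between 0.26 and 1.04 on every array but replicate 4; for Bcl11b, replicate 1 is missing because AK020296 had no ratio there.

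Emx1 and Emx2, paralogous homeobox genes of the dorsal telencephalon, could be described only in part. Emx1 read 0.02, 1.39 and 2.60 on replicates 1, 3 and 4 and -3.04 on replicate 8, with no ratio elsewhere. Its 3 values with exposed RNA in Cy3 were thus at or above the array median and its only value in the other orientation was below it, on ratios of whole numbers no larger than 7. It was not tested. Emx2, which promotes caudal and medial cortical identity, read 0.65, -1.48, -1.36 and -2.36 on replicates 1 to 4 and -1.20, -1.09 and 1.57 on replicates 5, 7 and 8. On replicate 6 it was 1 of 268 probes at the array's highest value, which was taken as no ratio. With that value kept the turning part was 2.50 (limma adjusted p = 0.607) and the shared part 1.33 (limma adjusted p = 0.747). The orientations overlapped, with 5 of the 7 values below the array median and replicates 1 and 8 above it. Its shared part was -0.69 ± 0.49 (95% interval -1.80 to 0.42, limma adjusted p = 0.548) and its turning part 0.45 ± 0.49 (limma adjusted p = 0.750). Where both genes had a ratio, on 4 arrays, they had the same sign on 1.

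Lhx2, the LIM-homeodomain selector of cortical identity, varied least among the homeobox members. It read -0.59, -0.24, 0.68 and 1.42 on replicates 1 to 4 and -0.37, 1.29, -1.19 and 1.07 on replicates 5 to 8. Positive and negative ratios came from each orientation alike, 2 and 2. The shared part was 0.26 ± 0.39 (95% interval -0.60 to 1.12, limma adjusted p = 0.790) and the turning part -0.06 ± 0.39 (95% interval -0.91 to 0.80, limma adjusted p = 0.969). Otx2, needed for the anterior neural plate and later for choroid plexus and midbrain, had values on only 3 arrays: -3.50 on replicate 3, -2.30 on replicate 5 and 0.55 on replicate 6. These 3 values give no comparison.

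Dlx1 and Dlx2, neighbouring genes that act together in the ventral telencephalon, had wide and unlike ratios. Dlx1 read -4.56, 2.50, 1.15 and 1.95 on replicates 1 to 4 and -0.86, -0.55, 1.02 and 1.82 on replicates 5 to 8. Replicate 1 stood far below the other 7 arrays, which ran from -0.86 to 2.50. Dlx2 read 1.12, -1.69, -3.40 and 1.88 on replicates 1 to 4 and 2.90, -2.25, -1.25 and -1.30 on replicates 5 to 8. Here the highest value, on replicate 5, and the lowest, on replicate 3, came from different orientations. The 2 genes had opposite signs on 6 of the 8 arrays; they agreed in sign on replicates 4 and 6. Neither part passed for either gene. The shared part was 0.31 ± 0.72 for Dlx1 (95% interval -1.30 to 1.92, limma adjusted p = 0.874) and -0.50 ± 0.70 for Dlx2 (95% interval -2.05 to 1.05, limma adjusted p = 0.775). The turning parts were 0.05 ± 0.72 and 0.02 ± 0.70 (limma adjusted p = 0.986 and 0.994).

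Tbr1, a marker of early-born deep-layer neurons, had values on 6 arrays. It read 1.94, -0.92 and 0.72 on replicates 1 to 3 and 1.69, 0.45 and 0.90 on replicates 5 to 7. Of these, 5 values were above the array median and replicate 2 was below it, and the orientations overlapped. The shared part was 0.80 ± 0.46 (95% interval -0.26 to 1.85, limma adjusted p = 0.469), and the turning part 0.22 ± 0.46 (95% interval -0.84 to 1.27, limma adjusted p = 0.882). Tbr1 kept a positive shared part in each of the 19 alternatives that gave a value, from 0.46 to 1.17, and passed in none (limma adjusted p 0.387 to 0.751).

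Bcl11b directs subcerebral axon growth in layer 5 neurons and is also expressed in striatal neurons. Its probe NM_021399, but not its other probe, had the smallest spread within orientations among the tested member probes. Probe NM_021399 read -1.56, -2.15, -1.35 and -2.49 on replicates 1 to 4 and -0.50, 0.81, 0.71 and 0.71 on replicates 5 to 8. Every array with exposed RNA in Cy3 lay below every array with it in Cy5, and replicate 5 was the only one of the latter under the array median. The means were -1.89 ± 0.53 (SD, n = 4) and 0.43 ± 0.62 (SD, n = 4), and the SD within orientations, 0.58, was smaller than the 1.25 of the median tested probe. The turning part was 1.16 ± 0.30 (95% interval 0.49 to 1.83), or 2.23-fold (1.41 to 3.55), and did not pass over all probes (limma adjusted p = 0.103, unadjusted p = 0.00312). With the values as deposited, without centring, it was 1.48 and passed (limma adjusted p = 0.0350); there the median turning part of all tested probes was 0.42, against 0.11 after centring. The shared part was -0.73 ± 0.30 (95% interval -1.40 to -0.06, limma adjusted p = 0.325, unadjusted p = 0.0359).

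The other Bcl11b probe, AK020296, leaned the same way on wider arrays. It read -2.01, -0.77 and 0.52 on replicates 2 to 4 and 2.29, 3.14, -0.93 and 0.19 on replicates 5 to 8. Its orientations overlapped, through replicate 4 above 0 and replicate 7 below it. Its turning part was 0.96 ± 0.55 (95% interval -0.28 to 2.21, limma adjusted p = 0.491), close to the 1.16 of NM_021399, and its shared part 0.21 ± 0.55 (limma adjusted p = 0.890), on the other side of 0. The 2 probes had the same sign on 4 of the 7 arrays where both had a ratio. In the turning part, then, the Bcl11b probes lay within their errors of each other, and the Pax6 probes, at 3.82 and 0.56, did not overlap in their 95% intervals; the difference between probes was not itself tested.

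**Figure D3:**
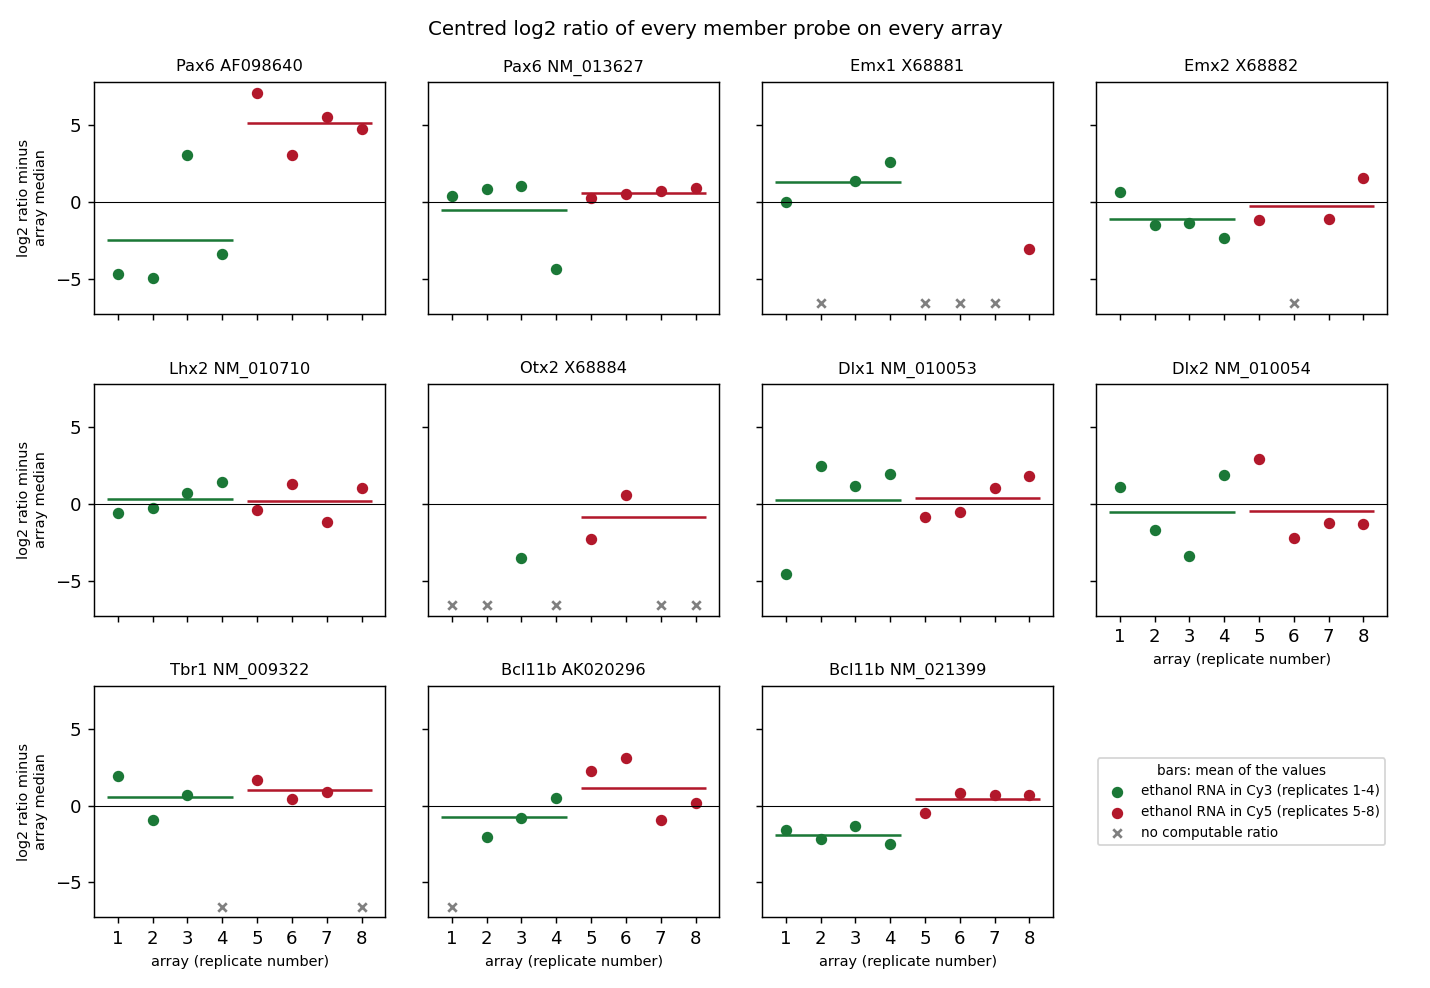
Centred log2 ratio (vertical axis, same scale in each panel) of the 11 member probes on arrays 1 to 8, green with exposed RNA in Cy3 and red in Cy5, with bars at the mean of the values and grey crosses where a value was left out. The colours separate completely for Pax6 AF098640 and Bcl11b NM_021399 among the tested probes, and mix in the other 7.

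Read together, the members were counted beside the arrays as a whole. In the shared part 0 of 9 tested member probes passed, where 0% of all probes did (limma, adjusted p under 0.05); 1 of 9 had an unadjusted p under 0.05, where 13.9% of all probes did. In the turning part 0 of 9 passed, against 1.56% of all probes, and 2 of 9 had an unadjusted p under 0.05, against 13.8%. The orientations did not overlap for 2 of 9 probes, against 10.9% of all probes, and both were higher with exposed RNA in Cy5, against 5.68%. With so few probes these shares cannot be told from the background. No member probe had 1 sign on every array, which 3.58% of all probes did.

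Turning parts were positive for 8 of 9 member probes, with a median of 0.45, while 56.9% of all tested probes were positive, with a median of 0.11. Several of the 8 were close to 0, such as Dlx2 at 0.02 and Dlx1 at 0.05, and only the Pax6 probe AF098640 and both Bcl11b probes kept their sign in every alternative that gave a value. Shared parts were positive for 6 of 9, with a median of 0.21, against 46.1% and -0.06 over all tested probes. The spread within orientations had a median SD of 1.66 for the tested members and 1.25 for all tested probes, and ran from 0.58 for Bcl11b NM_021399 to 2.92 for Pax6 AF098640.

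**Figure D4:**
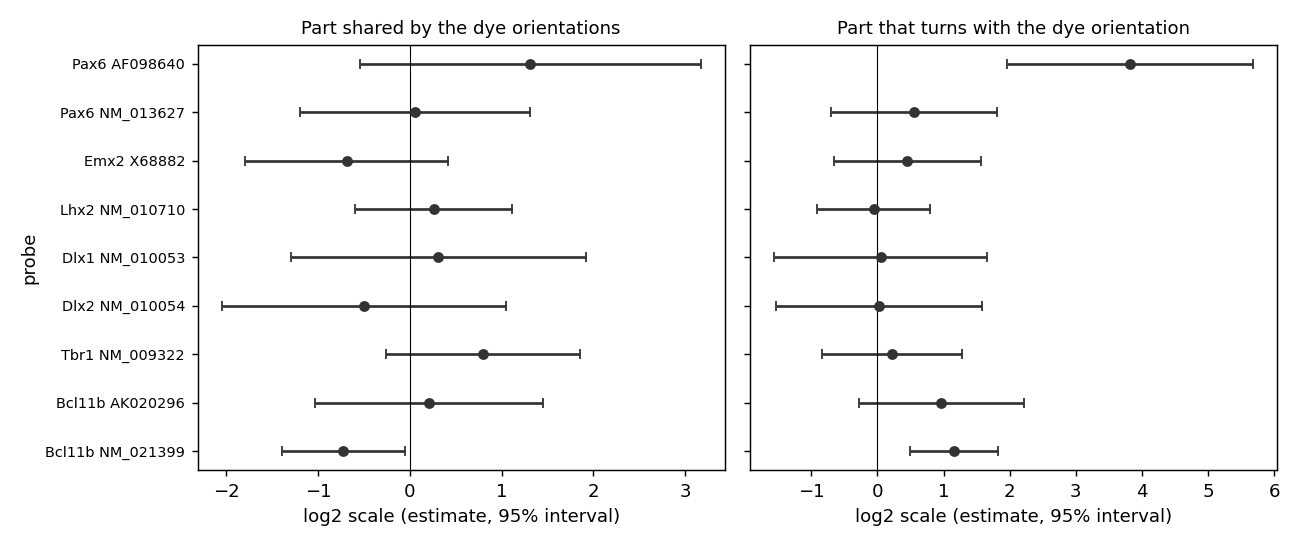
Shared part (left) and turning part (right) of the 9 tested member probes on the log2 scale, with 95% intervals from the limma fit. In the shared part only the interval of Bcl11b NM_021399 (-1.40 to -0.06) leaves out 0, and in the turning part those of Pax6 AF098640 (1.96 to 5.68) and Bcl11b NM_021399 (0.49 to 1.83); none passed after adjustment over all probes.

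Relatives of the members in the same developmental programme were counted from fixed lists. Of other pallial progenitor and patterning factors, 32 probes were on the array and 25 were tested; none passed in either part, with a median shared part of -0.17 and a median turning part of -0.04. The smallest p-values belonged to the proneural factor Neurog2, at -1.69 ± 0.65, and the anterior homeobox gene Hesx1, at -1.38 ± 0.56, in the shared part, and in the turning part to Eomes, the T-box factor of intermediate progenitors, at -1.27 ± 0.43, and the homeobox gene Meis1, at 1.47 ± 0.49 (limma adjusted p 0.225 to 0.321). Eomes lies between Pax6 and Tbr1 in the textbook order of cortical neurogenesis.

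Of ventral telencephalon and interneuron genes 23 of 29 probes were tested and none passed, with medians of -0.45 (shared) and 0.06 (turning). The transcription factors Maf and Lhx8 read -1.67 ± 0.46 and -1.09 ± 0.36 in the shared part. In the turning part the vesicular GABA transporter gene Slc32a1 read -1.31 ± 0.37 and Dlx5, the partner of Dlx1 and Dlx2 in interneuron development, 1.14 ± 0.46 (limma adjusted p 0.145 to 0.327 over these 4). Of cortical projection neuron factors 27 of 30 probes were tested and none passed, with medians of -0.15 and -0.11. Id2 and Foxp1 had the smallest p-values in the shared part, at -1.26 ± 0.31 and -1.43 ± 0.35. In the turning part Foxp1 read 0.94 ± 0.35 and Bcl11a, the paralogue of Bcl11b, 1.14 ± 0.44 (limma adjusted p 0.180 to 0.289).

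In the remaining lists, of genes of other positions and of signals, 3 probes passed in the turning part, where 1.56% of all tested probes did; the difference between lists was not tested. Of 19 tested probes for midbrain, hindbrain and spinal cord factors (31 on the array), 1 passed: Egr2, the zinc finger gene of hindbrain rhombomeres that is also induced by growth factors, at 5.70 ± 0.36 (limma adjusted p = 1.19e-05). It read -6.37 to -5.48 on replicates 1 to 4 and 4.07 to 6.83 on replicates 5 to 8, without overlap. Of 28 tested probes for telencephalic signals (38 on the array), 2 passed: 1 probe of the Hedgehog receptor gene Ptch1 at -6.26 ± 0.41 (limma adjusted p = 1.39e-05) and the cortical hem ligand Wnt3a at 3.71 ± 0.48 (limma adjusted p = 0.00271). Wnt3a was alike in size to Pax6 AF098640, with -4.73 to -1.39 on replicates 1 to 4 and 1.89 to 5.31 on replicates 5 to 8, and every array of an orientation lay on the same side of 0. In the shared part no probe of these 2 lists passed. Wnt5a read -1.27 ± 0.40, the retinoic acid hydroxylase gene Cyp26a1 -1.34 ± 0.49, Gata2 -1.01 ± 0.35 and Hoxc4 -0.99 ± 0.40 (limma adjusted p 0.233 to 0.320).

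For each member probe with 8 values, the named gene with the highest correlation over the 8 arrays was looked up among 8678 or 8679 candidate probes. Correlation leaves out level and size. Sik1, for example, ran from -2.705 to 0.973 where Pax6 AF098640 ran from -4.958 to 7.126. The correlations describe the best match out of that many and carry no p. Pax6 AF098640 was nearest to the kinase gene Sik1 (Pearson r = 0.966) and NM_013627 to the histone acetyltransferase gene Hat1 (r = 0.920). Lhx2 was nearest to Ubn1 (r = 0.943), Dlx1 to the aldehyde dehydrogenase gene Aldh3a1 (r = 0.950), Dlx2 to Tal2 (r = 0.947) and Bcl11b NM_021399 to the clone 6430710C18Rik (r = 0.977). None of these 6 neighbours is another member or a gene of the lists above, and all 8 arrays share their dye orientation within each group of 4.

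Markers of the cell types that the cultures could hold gave no called probe in either part. The medians of their turning parts were -0.15 for neural progenitor markers (7 probes tested), 0.54 for neuronal (5), -0.04 for astrocyte (5), 0.08 for oligodendrocyte lineage (6), 1.11 for microglia (2), 0.00 for endothelial (4), -0.08 for meningeal fibroblast (2) and 0.35 for erythroid markers (1). In the same order the medians of their shared parts were 0.32, -0.17, -0.87, -0.16, -0.55, -0.11, -0.21 and 0.31. Of the 5 astrocyte probes 2 had an unadjusted limma p under 0.05 in the shared part, both negative, against 13.9% of all tested probes. So did 1 of 5 neuronal and 1 of 2 microglia probes, also negative. The 7 neural progenitor probes had 1 of each sign. In the turning part 1 neuronal, 1 astrocyte, 1 oligodendrocyte lineage and 1 microglia probe had such a p, all positive. So did 1 endothelial probe, negative, against 13.8% of all tested probes. With so few probes these shares cannot be told from the background. The array medians of the neuronal markers ran from -2.08 to 0.14 with exposed RNA in Cy3 and from -0.12 to 0.30 with it in Cy5; their part in the Bcl11b and Tbr1 ratios, genes of neurons, was not tested. As the files hold ratios and no intensities, the presence of cortical cells could not be checked from levels, and fewer cells of a type cannot be told apart from less RNA per cell. Across the arrays 75.4% to 87.1% of probes had a computable ratio, and the number of arrays limits the precision.

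**Figure D5:**
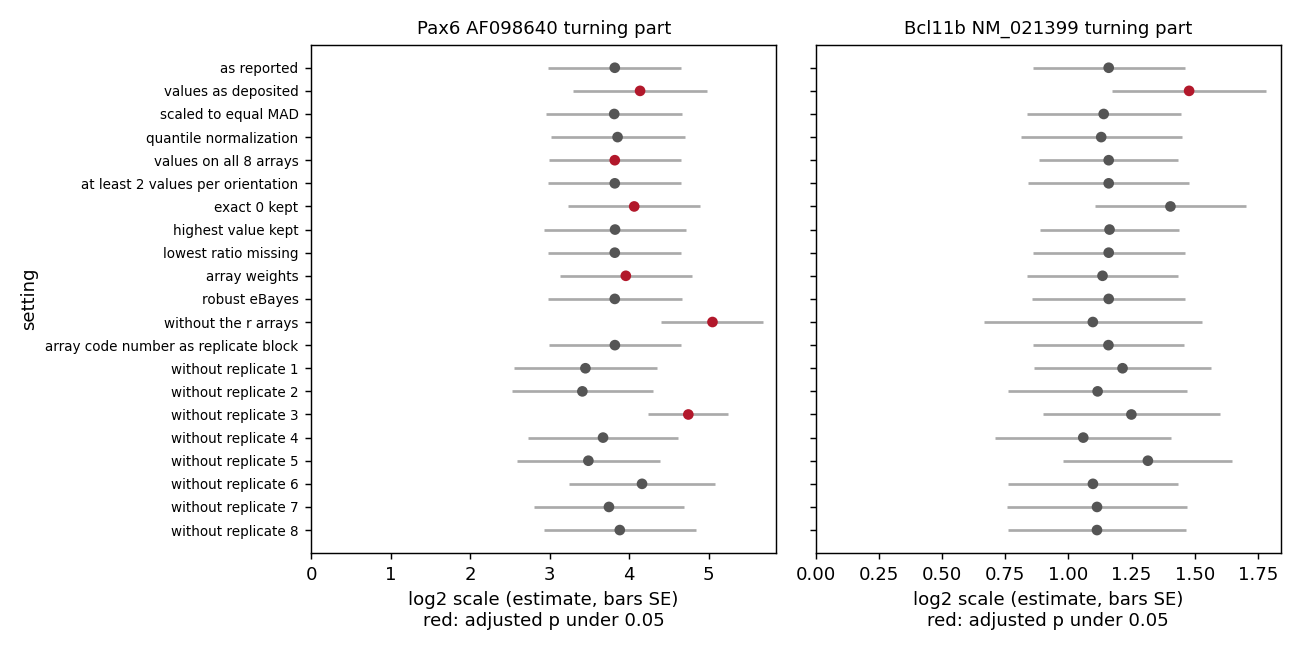
Turning part of Pax6 AF098640 (left) and Bcl11b NM_021399 (right) on the log2 scale, as reported and under each of 20 alternatives, with SE bars and red points where the limma adjusted p was under 0.05. Pax6 ranges from 3.41 to 5.05 with 6 red points, and Bcl11b from 1.06 to 1.48 with a single red point, for the values as deposited.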

How the data were processed

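Total RNA of control and ethanol-exposed cultures was labelled with the Genisphere 3DNA kit for Cy3 and Cy5, per the labels' protocols, and hybridised on 8 arrays. The authors deposited 1 log2 ratio per probe and array and no intensities; the scanner, any background correction or normalization, and the direction of the ratios are not stated in the labels or files used here. Values equal to 0 or to the array's highest value were set as missing and each array was centred on its median. Probes with 3 or more values in each orientation entered a fit with limma 3.58.1 (R 4.3.3, lmFit and eBayes). The shared and turning parts were 2 coefficients over all 8 arrays. Benjamini-Hochberg adjustment was over 15345 probes, with a threshold of 0.05. The procedure was tested on data simulated with independent normal noise, which held no lone outlying arrays and no whole-number ratios. Gene names are those of the platform's annotation, updated by Entrez number (15957 of 16635 probes with 1 symbol matched a GRCm38.p6 table; 113 probes have several symbols and 4834 none). All 11 member probes matched, and the identifiers of 6 are RefSeq transcripts. The labels and files name no genome build, so only the RefSeq windows carry coordinates. Every member probe is named; from the lists, called probes or else the 2 with the smallest p in each part; and for each member probe with 8 values its nearest neighbour by Pearson correlation. Members and lists were chosen with earlier results of these data known, and the search for whole-number ratios was added after the values were seen. Alternatives were other scalings, filters, treatments of missing values, array weights, a robust fit, a block on array code numbers and leaving out arrays; the reported values come from the settings above.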

Additional observations from a re-analysis of the deposited data

Results flagged for a closer look

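In 14 groups of 4 arrays a lone array was looked for among the member probes, where chance gives about 1 in 20 for normally distributed values. How often the same search flags the other probes of the arrays was not counted. Replicate 3 of Pax6 AF098640 was not flagged, and 2 groups were. The Pax6 probe NM_013627 read -4.37 on replicate 4 while the other 3 arrays with exposed RNA in Cy3 read 0.42 to 1.04. The Bcl11b probe NM_021399 read -0.50 on replicate 5 while the other 3 arrays with exposed RNA in Cy5 read 0.71 to 0.81. In neither case did the lone array's removal make the probe's turning part pass. It became -0.085 for Pax6 NM_013627 without replicate 4 and 1.31 for Bcl11b NM_021399 without replicate 5.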

How the results depend on the processing

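The shared part of Pax6 AF098640, Dlx2, Tbr1 and Bcl11b NM_021399 and the turning part of Pax6 AF098640 and of both Bcl11b probes kept their sign in every alternative that gave a value. The other members' parts changed sign in at least 1 alternative and passed in none. No member probe passed in the shared part under any alternative, and over all probes 1 passed there when the highest values were kept.

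In the turning part 417 probes passed with the values as deposited, and 76 without the r arrays, against 239 in the reported fit. Without the r arrays, replicates 1 and 2 remained with exposed RNA in Cy3 and 5 to 7 with it in Cy5. The filter there was 2 values per orientation, which gave 13067 tested probes. The member probes that passed numbered 2 with the values as deposited (Pax6 AF098640 and Bcl11b NM_021399). They numbered 1, always Pax6 AF098640, with values on all 8 arrays, with exact zeros kept, with array weights, without the r arrays and without replicate 3. Sign changes with the values as deposited: Lhx2 turned to 0.26. With arrays scaled to equal spread the Dlx1 turning part was -0.035. With quantile normalization it was -0.071 and the shared part of Pax6 NM_013627 was -0.031. With exact zeros kept that shared part was -0.011 and the Lhx2 turning part 0.19. With the highest value kept the Emx2 shared part was 1.33 and its turning part 2.50 instead of 0.45. With array weights the shared part of Pax6 NM_013627 was -0.10 and the Dlx1 turning part -0.16. Without the r arrays the shared parts of Lhx2 and Dlx1 were -0.25 and -0.58, and the turning parts of Pax6 NM_013627, Emx2 and Lhx2 were -0.070, -0.37 and 0.17. The cause of these changes was not tested.

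Leaving out 1 array at a time, 134 to 176 probes and 0 to 1 member probes passed in the turning part. Shared parts then ran from 0.39 (without replicate 3) to 1.72 for Pax6 AF098640, from -1.14 to -0.45 for Emx2, from 0.075 to 0.49 for Lhx2, from -1.06 to -0.021 for Dlx2, from 0.46 to 1.17 for Tbr1, from -0.21 to 0.70 for Pax6 NM_013627, from -0.064 to 1.11 for Dlx1 and from -0.12 to 0.56 for Bcl11b AK020296. Turning parts ran from -0.085 to 0.82 for Pax6 NM_013627, from -0.0041 to 0.75 for Emx2, from -0.24 to 0.17 for Lhx2, from -0.76 to 0.42 for Dlx1, from -0.54 to 0.42 for Dlx2, from -0.16 to 0.56 for Tbr1 and from 0.63 to 1.31 for Bcl11b AK020296.

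With the array code number as a replicate block (correlation 0.008 within a number) the calls among member probes did not differ from those reported. Code numbers are shared by arrays of both orientations, but no label ties them to a culture. The files give no intensity by which to grade probes, and 8 arrays leave intervals of several-fold for most members.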
